A study of Mus musculus with 4 samples.

Results

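The genes described here are 7 cytosolic nucleic acid sensors and their partners, taken by symbol from the 48897 genes counted in retinas of wild-type C57BL/6 mice (C57BL/6J in the methods). They are Ddx58 (RIG-I), Ifih1 (MDA5), Dhx58 (LGP2), Mavs, Ddx60, Eif2ak2 (PKR) and Zbp1, and all 7 were found in the deposited table. They were chosen for their function, but with earlier results of these data known. The question was whether the RNA of these sensors differed after an antagomir, a chemically modified antisense oligonucleotide, was injected against miR-124-3p.

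On postnatal day 3 the left eye received 0.6 nmol of the miR-124-3p antagomir in 1 μl into the vitreous (anti-miR-124 group), and the right eye received the same amount of a scrambled oligonucleotide (NC group). Retinas were collected 6 days later, on postnatal day 9, and 2 RNA-Seq libraries were made per group from pooled retinas. For the ratios below, a left-eye and a right-eye library that share a number in the table were set against each other. They are called pair A and pair B, as no label links the numbers to replicates or to shared animals, and their libraries are called NC A, anti-miR-124 A, NC B and anti-miR-124 B. Both groups had been injected with an oligonucleotide, so the comparison is between 2 oligonucleotides of different sequence and not between injected and untouched eyes, and eye side and oligonucleotide cannot be told apart. The libraries measured neither mature miR-124-3p nor the injected molecules.

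RIG-I, MDA5 and LGP2 are RNA helicases of the cytosol that bind double-stranded or 5′-triphosphate RNA of viruses. RIG-I and MDA5 then engage MAVS on the mitochondrial membrane, from which the induction of type I interferons starts, and LGP2, which lacks the signalling domains, tunes them. PKR binds double-stranded RNA and halts translation through eIF2α, ZBP1 binds left-handed Z-form nucleic acid and can start necroptosis, and most of these genes are themselves induced by interferon through interferon-stimulated response elements, whose core is GAAA, any 2 bases and again GAAA.

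That core was searched on both strands of the RefSeq promoter windows (GRCm38.p6, from 250 bases upstream to 50 bases downstream of the start site), which were given for 5 of the 7 genes, all but Dhx58 and Zbp1. It was found in Ddx58, Ifih1, Ddx60 and Eif2ak2, and not in Mavs. The 4 genes that hold it were higher with the antagomir in both pairs, while Mavs was higher in pair B only. Dhx58 and Zbp1, which had no window, were also higher in both pairs, and Mavs alone stood for windows without a core. Whether the core bears on these differences was not tested. From the 4 genes, the 30 bases around each match were taken. They are written 5′ to 3′ on the strand of the gene with the core in capitals, and in Ddx58 the core lies on the opposite strand, so its capitals read as the reverse complement.
Ddx58 (chr4:40239804-40239833, minus strand): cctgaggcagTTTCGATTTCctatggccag
Ifih1 (chr2:62646206-62646235, minus strand): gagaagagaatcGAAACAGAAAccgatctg
Ddx60, upstream match (chr8:61928024-61928053, plus strand): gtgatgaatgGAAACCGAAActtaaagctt
Ddx60, match nearer the start (chr8:61928058-61928087, plus strand): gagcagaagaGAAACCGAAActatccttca
Eif2ak2 (chr17:78882535-78882564, minus strand): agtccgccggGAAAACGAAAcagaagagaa

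Both Ddx60 cores lay upstream of the RefSeq start site, beginning 53 and 19 bases before it. In the coordinates of the deposited counts Ddx60 starts earlier, at chr8:61928064, and the core nearer the start lies just downstream of that position. The cores of Ddx58, Eif2ak2 and Ifih1 began 3, 19 and 33 bases downstream. The same letters were found in 1131 of 32851 RefSeq promoter windows of this length (3.44%), and 2 or more matches, as in Ddx60, in 74 windows (0.225%). A match is a description of the sequence only, and no binding was measured.

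**Figure D1:**
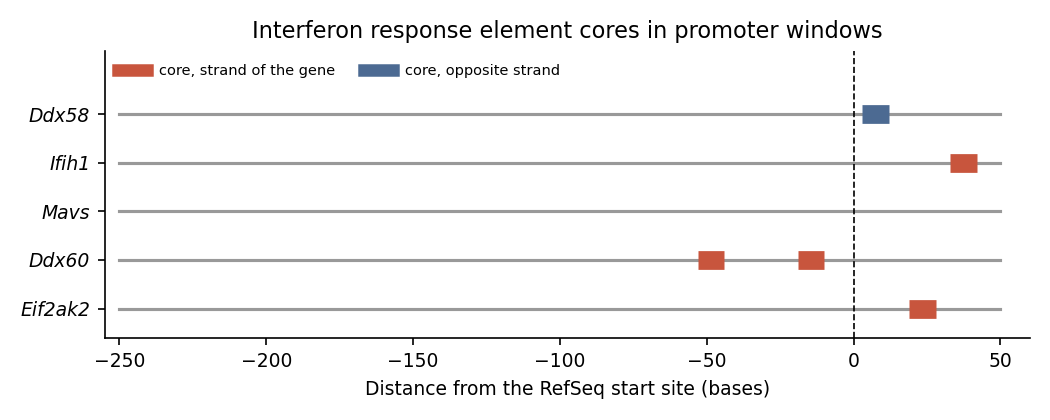
Positions of the interferon-stimulated response element cores in the promoter windows of 5 sensor genes, as the distance from the RefSeq start site in bases. Each grey line is 1 window of 250 bases upstream and 50 bases downstream, and coloured blocks are cores on the strand of the gene (red) or the opposite strand (blue). Ddx60 has 2 cores upstream of its RefSeq start site and Mavs has no core.

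The libraries held 16317239 to 18726963 counts, and 1 count on a gene of 1000 bases was worth 0.176 to 0.192 TPM, so values of a few counts carry a large counting error. All 19 retinal neuron markers were at 1 TPM or more in each library. NC A stood apart, with 67300 TPM on 22 lens genes against 176 to 236 TPM in the other 3 libraries. Anti-miR-124 B stood apart as well, with 697 TPM on 16 microglia markers against 225 to 280 TPM in the other 3. Results are therefore given for each pair, and with each library left out where that changed them.

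Expression of 6 of the 7 genes was higher with the antagomir in each pair, and in the same 6 both anti-miR-124 libraries lay above both NC libraries, so that their direction does not depend on which libraries are set together. Mavs was the exception. Of all genes with a count, 17.8% were higher in both pairs by CPM (counts scaled to the library total after TMM normalization). Groups that did not overlap in this direction were found for 13.3%. With edgeR's quasi-likelihood test, 0 of the 6 genes tested had an adjusted p under 0.05, and 0.0% of all 17766 genes tested did. At an unadjusted p under 0.05 the same test marked 5 of the 6 as higher, all but Mavs, and 2.23% of all genes as higher, and it marked 4, no longer Dhx58, when NC B or anti-miR-124 B was left out. DESeq2 called Ddx58, Ifih1, Ddx60 and Eif2ak2 higher at an adjusted p under 0.05, with 0.0938% of all genes, and edgeR without its filter on low counts called 6 of the 7, with 0.788% of all genes. Whether a sensor passed the corrected threshold thus depended on the method. Dhx58 and Ddx60 entered the test through their anti-miR-124 libraries, as their NC libraries alone would not have passed the filter, and Zbp1 did not pass it.

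**Figure D2:**
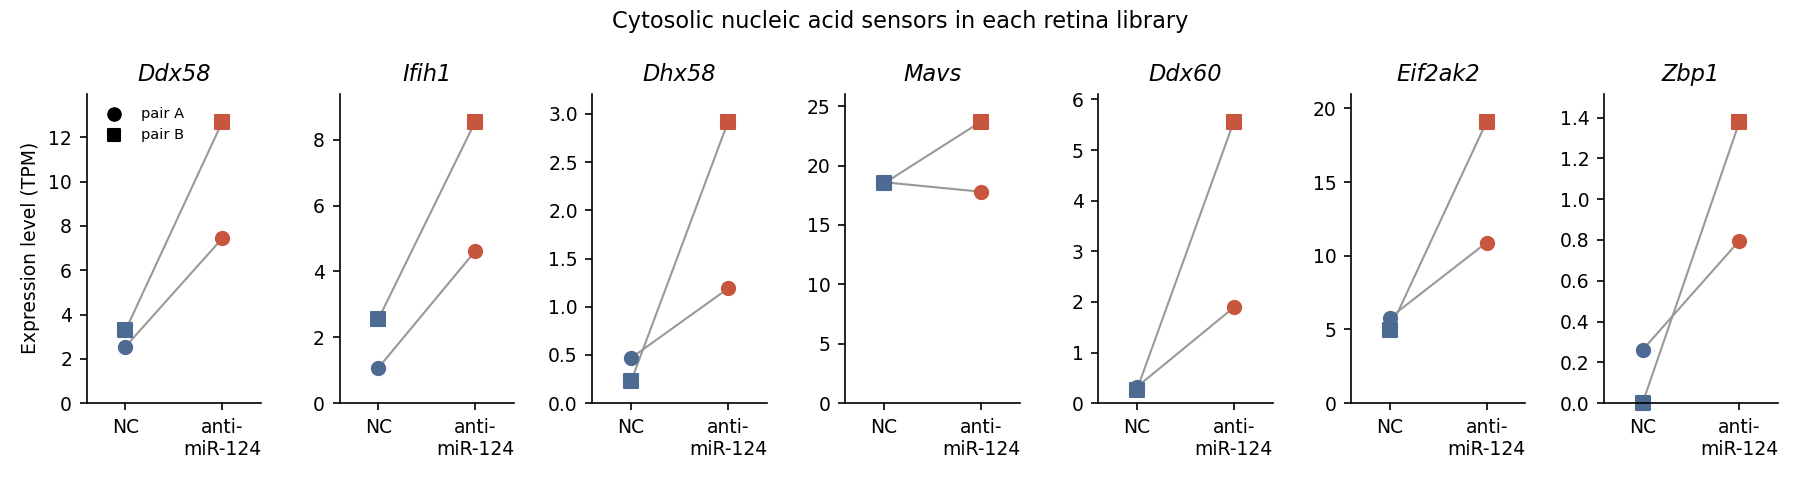
Expression level in TPM (linear axes from 0, a separate scale for each gene) of the 7 sensor genes in the NC (blue) and anti-miR-124 (red) libraries. Lines join the libraries of pair A (circles) and pair B (squares). The lines climb in both pairs for 6 genes, while those of Mavs part, from 18.6 to 17.8 TPM in pair A and from 18.5 to 23.7 TPM in pair B.

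Ddx58 (chr4:40203777-40239825, minus strand, in the coordinates of the table, which match GRCm38) encodes RIG-I. It had 67 counts in NC A, 192 in anti-miR-124 A, 88 in NC B and 358 in anti-miR-124 B. Per length these were levels of 2.55 and 3.28 TPM with the scrambled control and 7.44 and 12.7 TPM with the antagomir. Both anti-miR-124 values lay well above both NC values. The fold, as the CPM ratio with its 95% counting interval, was 2.7 (2.04 to 3.63) in pair A and 3.9 (3.08 to 4.98) in pair B. These intervals overlap. The fitted log2 fold change was 1.74 (standard error 0.28), at rank 15 of 17766 by p, with an adjusted p of 0.671 from edgeR and 4.82e-05 from DESeq2.

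Ifih1 (chr2:62595793-62646255, minus strand) encodes MDA5, which prefers long double-stranded RNA. Its counts went from 32 in NC A to 136 in anti-miR-124 A and from 78 in NC B to 274 in anti-miR-124 B. The levels of the NC group were 1.07 and 2.55 TPM, and those of the anti-miR-124 group 4.62 and 8.55 TPM. The groups did not overlap, although the NC libraries differed from each other more than those of Ddx58 did. The fold was 4.01 (2.71 to 6.09) in pair A and 3.36 (2.61 to 4.38) in pair B, which made Ifih1 the 1 gene of the 7 whose log2 ratio was not larger in pair B. Its fitted log2 fold change was 1.82 (standard error 0.42), with an adjusted p of 0.989 from edgeR and 0.00502 from DESeq2.

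Dhx58 (chr11:100694884-100704271, minus strand) encodes LGP2. It had few counts, 6 in NC A, 15 in anti-miR-124 A, 3 in NC B and 40 in anti-miR-124 B. This was 0.469 and 0.229 TPM in the NC group against 1.19 and 2.92 TPM in the anti-miR-124 group. The groups did not overlap, but in pair A the difference was within counting error. The fold was 2.36 (0.865 to 7.42) in pair A and 12.8 (4.07 to 64.5) in pair B, so the height of the latter rests on 3 counts. The fitted log2 fold change was 2.48 (standard error 0.65), and the adjusted p was 0.989 with edgeR and above the threshold with DESeq2.

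Mavs (chr2:131234063-131248025, plus strand), the adaptor that the RIG-I-like receptors share, had 315 counts in NC A, 297 in anti-miR-124 A, 320 in NC B and 430 in anti-miR-124 B. Its NC levels of 18.6 and 18.5 TPM stood against 17.8 and 23.7 TPM after the antagomir. The anti-miR-124 libraries lay on either side of the NC libraries. The fold was 0.889 (0.756 to 1.05) in pair A and 1.29 (1.11 to 1.49) in pair B. The fitted log2 fold change was 0.11 (standard error 0.15, edgeR adjusted p = 0.989), and it turned to -0.09 when anti-miR-124 B was left out.

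Ddx60 (chr8:61928064-62037704, plus strand) encodes a helicase described as a cofactor of RIG-I-like receptors. Its counts were 12 in NC A and 10 in NC B, 70 in anti-miR-124 A and 224 in anti-miR-124 B. In TPM, the NC group was at 0.319 and 0.26 and the anti-miR-124 group at 1.89 and 5.56. The NC libraries were close together and both anti-miR-124 libraries were far above them. The fold was 5.5 (2.96 to 11.2) in pair A and 21.5 (11.5 to 45.4) in pair B, the highest of the 7 in pair A and, among those with NC counts, in pair B. The fitted log2 fold change of 3.62 (standard error 0.60) stood at rank 17 by p, and its adjusted p was 0.693 from edgeR and 5.05e-07 from DESeq2.

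Eif2ak2 (chr17:78852550-78882572, minus strand) encodes PKR, the kinase of eIF2α that double-stranded RNA activates. Its CPM was 8.74 in NC A, 15.3 in anti-miR-124 A, 6.85 in NC B and 26.3 in anti-miR-124 B. The levels per length were 5.79 and 4.98 TPM in NC retinas, and 10.9 and 19.1 TPM in anti-miR-124 retinas. The groups were apart in both pairs, and further in pair B. The fold was 1.75 (1.42 to 2.17) in pair A and 3.84 (3.15 to 4.71) in pair B, intervals that do not overlap. The fitted log2 fold change was 1.42 (standard error 0.27), at rank 27 by p, with an adjusted p of 0.957 from edgeR and 0.000464 from DESeq2. The opposite-strand gene Gm26637, which overlaps it, had 2 and 4 counts in the NC group and 12 in each library of the anti-miR-124 group. Where the genes overlap, their reads cannot be told apart, since the strand setting of the counting is not stated.

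Zbp1 (chr2:173206612-173218922, minus strand), the Z-nucleic acid sensor, was at the limit of detection, with 3 counts in NC A, 9 in anti-miR-124 A, 0 in NC B and 17 in anti-miR-124 B. The NC levels were 0.261 TPM and 0, and the anti-miR-124 levels 0.797 and 1.38 TPM. Both anti-miR-124 libraries were higher, but in pair A the fold of 2.83 (0.706 to 16.3) was within counting error. In pair B it was at least 5.43-fold higher when the NC library, with 0 counts, is set at the floor of 3 counts, and the counting interval, which also takes in the error of the 17 counts, reached down to 3.95-fold. Zbp1 did not enter edgeR's test with the filter. Without the filter its adjusted p was 0.0414, while with DESeq2 it was above the threshold, as it was in the 3 edgeR fits with a library left out that could take it in (the smallest being 0.355).

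**Figure D3:**
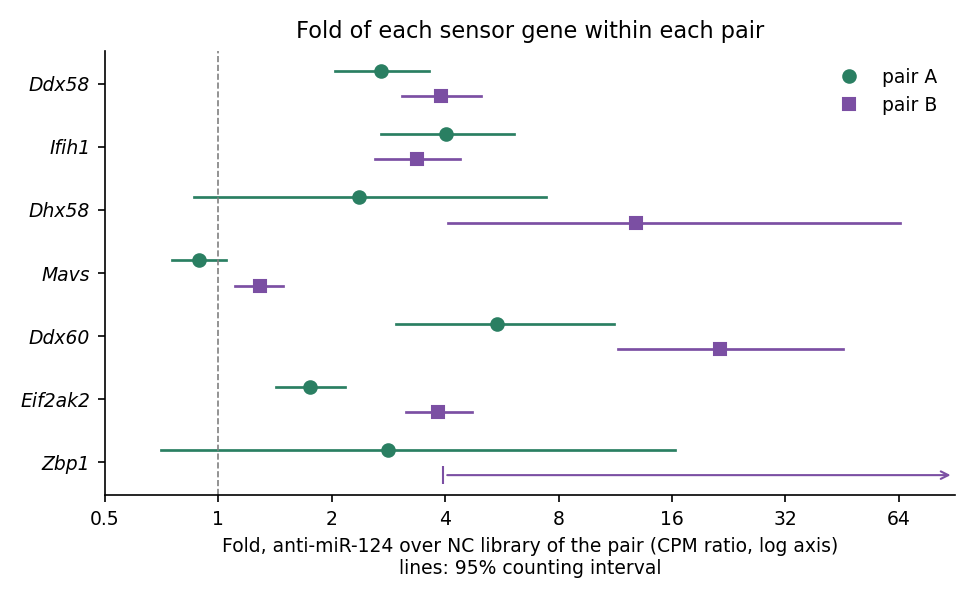
Fold of each sensor gene in pair A (green circles) and pair B (purple squares), as the CPM ratio of the anti-miR-124 over the NC library on a log axis. Lines are 95% counting intervals, the dashed line marks no difference, and the arrow for Zbp1 starts at the lower bound of 3.95, since its NC library of pair B had no count. In pair A the intervals of Dhx58, Mavs and Zbp1 include 1. The intervals cover counting error only and not the spread between libraries, so an interval above 1, as for Mavs in pair B, is not a test of the groups.

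As means ± SD of the groups (n = 2 each), Ddx58 had 2.92 ± 0.511 TPM in the NC and 10.1 ± 3.75 TPM in the anti-miR-124 group. Ifih1 had 1.81 ± 1.04 and 6.58 ± 2.78 TPM, and Dhx58 had 0.349 ± 0.17 and 2.05 ± 1.22 TPM. Mavs had 18.5 ± 0.101 and 20.8 ± 4.16 TPM, a difference smaller than the spread of the anti-miR-124 libraries. Ddx60 had 0.289 ± 0.042 and 3.72 ± 2.59 TPM, Eif2ak2 had 5.39 ± 0.578 and 15.0 ± 5.74 TPM, and Zbp1 had 0.131 ± 0.185 and 1.09 ± 0.414 TPM. For each of the 7 genes, pair B supplied the higher anti-miR-124 value.

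By level in TPM, the adaptor was the most abundant of the 7, and Mavs, Eif2ak2, Ddx58 and Ifih1 followed each other in this order in all 4 libraries. Among NC values Mavs and Eif2ak2 were each separate from the next gene by more than their range. The ranges of Ddx58 and Ifih1 met at 2.55 TPM, and those of Dhx58, Ddx60 and Zbp1, all under 0.5 TPM, could not be put in order. In the anti-miR-124 libraries Ddx60 was above Dhx58 and Dhx58 above Zbp1 in both, but the range of each of the 7 genes overlapped that of its neighbour in level. The 7 summed to 29.1 TPM in NC A, 29.8 TPM in NC B, 44.7 TPM in anti-miR-124 A and 73.9 TPM in anti-miR-124 B. Mavs made up 64.0% and 62.1% of the NC sums but 39.9% and 32.1% of the anti-miR-124 sums, so that the other 6 together exceeded it only in the latter. Without Mavs the sum was 10.5 and 11.3 TPM against 26.9 and 50.2 TPM.

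The pairs differed in size. The log2 ratio (of CPM with 0.5 added) in pairs A and B was 1.33 and 1.86 for Ddx58, 0.78 and 1.87 for Eif2ak2, and 1.88 and 3.55 for Ddx60. It was 0.66 and 1.98 for Dhx58 and 0.58 and 1.49 for Zbp1, which the added 0.5 pulls towards 0, and 1.77 and 1.64 for Ifih1. In pair A, 3 of the 7 genes had a log2 ratio above 1 (Ddx58, Ifih1 and Ddx60), as did 0.473% of all tested genes. In pair B, 6 of the 7 did, all but Mavs, as did 2.31% of all tested genes.

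**Figure D4:**
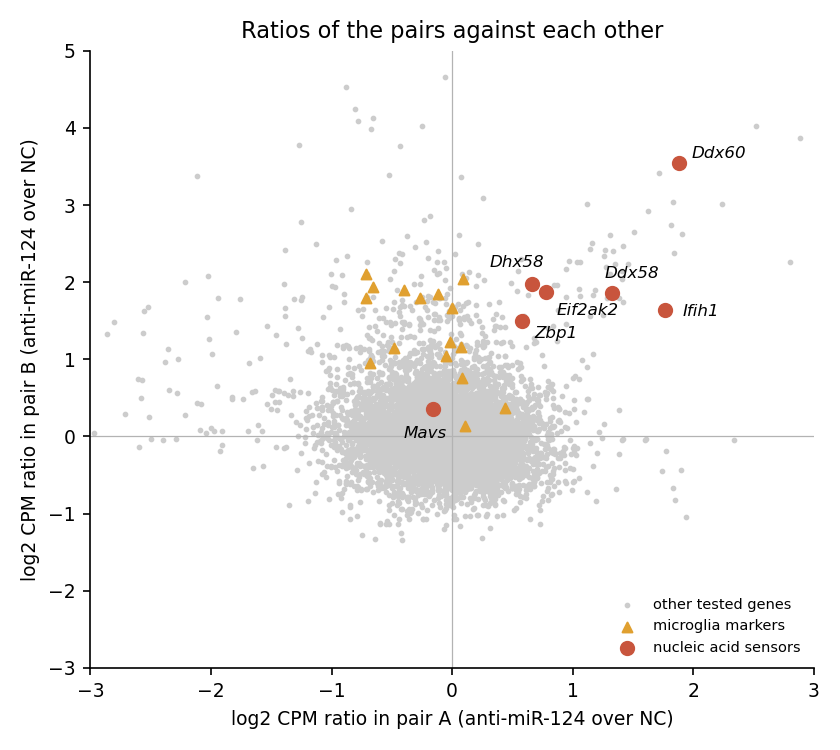
The log2 CPM ratio (0.5 added) of anti-miR-124 over NC in pair A (horizontal) against pair B (vertical) for the 7 sensor genes (red, named), 16 microglia markers (orange triangles) and the other tested genes (grey, 28 of 17760 lie outside the axes). All sensor genes except Mavs lie to the right of each microglia marker, whose largest ratio in pair A was 0.44.

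Microglia, the resident macrophages of the retina, express many sensors of nucleic acid. The sum of their markers moved with the sensors in pair B but not in pair A. The summed level of 16 markers was 280 TPM in NC A, 275 TPM in anti-miR-124 A, 225 TPM in NC B and 697 TPM in anti-miR-124 B. Of these markers, 6 were higher in both pairs and 0 lower in both, against 4043 and 4259 of all 17766 tested genes. With edgeR, 3 of the 16 had an unadjusted p under 0.05 and were higher, as did 2.23% of all tested genes. The log2 ratios of the markers ran from 0.14 to 2.11 in pair B. In pair A the largest was 0.44, for Siglech, and the ratios of Ddx58, Ifih1, Dhx58, Ddx60, Eif2ak2 and Zbp1 were all larger than that. Markers of T, B and NK cells and neutrophils summed to 8.27 and 8.51 TPM in pair A and 7.25 and 10.2 TPM in pair B. Cd3e, Ms4a1, Ncr1 and Ly6g were at 0 counts in each library. Cd8a and Cd4, the 2 tested genes of the list, were higher in both pairs. Cd8a had 63 and 65 counts in NC A and B, 68 and 98 in anti-miR-124 A and B. Cd4 had 36 and 21 counts in NC A and B, 43 and 42 in anti-miR-124 A and B. Genes of reactive glia summed to 745 and 560 TPM in pair A and 542 and 1110 TPM in pair B. The part of these cells in the sensor values of pair B was not tested, and in bulk retina more cells of a type and more RNA per cell cannot be told apart.

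Interferon genes, the type I and III members of which RIG-I-like receptors lead to, had almost no counts. Of 21 interferon genes, all of type I or III except Ifng, 17 had no count, Ifnb1 among them, and the other 4 had together 5 counts and 1 count in the NC libraries and 0 counts in both anti-miR-124 libraries. For Ifnb1 a count of 0 allowed a level of up to 0.746 TPM in anti-miR-124 A and 0.685 TPM in anti-miR-124 B. A lower level on postnatal day 9, or any level earlier, would not have been detected.

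Genes that interferon induces were taken as reporters, as most of the sensors are such genes themselves. Of 13 on this list, 10 were tested, and 0 had an edgeR adjusted p under 0.05. Of the 10, 9 had an unadjusted p under 0.05 and were higher in both pairs. The median log2 fold change was 3.25 over the 10 against 0.0 over all tested genes. Several, such as Ifit1, Isg15, Mx2 and Ifi44, had few NC counts and entered the test through their anti-miR-124 libraries. The list was also chosen with earlier results of these data known, so its count and median only describe it. In the pairs of counts that follow, the NC library comes first. Oasl2, which is related to the oligoadenylate synthetases, had 47 against 327 counts in pair A, 38 against 789 in pair B. Ifit1, whose protein binds foreign RNA ends, had the largest log2 fold change (5.24, standard error 0.54, edgeR adjusted p = 0.487) from 3 against 78 counts in pair A and 3 against 174 in pair B, so its size rests on very few NC counts. Ifit2 had the smallest, 0.25, and was the 1 gene of the 10 that was not higher in both pairs, with 209 against 348 counts in pair A, 328 against 314 in pair B.

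There were 16 tested regulators of the RIG-I route, some acting on the receptor and others on MAVS or beyond it. Of these, 6 were higher in both pairs and 4 lower in both, and the median of their log2 fold changes was 0.02. Over all 17766 tested genes, 4043 were higher in both pairs and 4259 lower in both. Trim25, the ubiquitin ligase that promotes RIG-I signalling, was the 1 with an unadjusted p under 0.05, with 566 against 739 counts in pair A, 613 against 1299 in pair B. Its log2 fold change was 0.70, with a p of 0.0118 before and 0.989 after adjustment by edgeR. Atg5, an autophagy protein that restrains RIG-I signalling, had the smallest at -0.13.

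Downstream of MAVS 19 genes were tested. Of these, 6 were higher in both pairs and 3 lower in both, and the median of the log2 fold changes was 0.03. Irf7, the interferon regulatory factor that interferon itself induces, stood apart with 15 against 72 counts in pair A, 11 against 213 in pair B. Its log2 fold change, 3.34 with a standard error of 0.56 (edgeR adjusted p = 0.695), was close to that of Ddx60. Tbk1, the kinase between MAVS and the IRF proteins, had 726 against 669 counts in pair A, 840 against 740 in pair B, a log2 fold change of -0.22 with an unadjusted p of 0.0223 from edgeR.

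The routes beside the RIG-I-like receptors were followed with lists of the same kind. Among 14 genes of cytosolic DNA sensing, 5 were higher in both pairs and 1 lower in both, at a median of 0.19 on the log2 scale. Ifi203, an interferon-inducible gene of the DNA sensor family of Aim2, had 6 against 14 counts in pair A, 7 against 40 in pair B. It was the 1 with an unadjusted p under 0.05 (0.0147 from edgeR), and it entered the test through its anti-miR-124 libraries. Aim2 had the largest log2 fold change of those with enough counts to be named, 0.48, and Rnaseh2b, a subunit of RNase H2, the smallest, -0.33.

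The endosomal receptors meet nucleic acid taken up into the cell. Among 15 tested genes of this group, 4 were higher in both pairs and 0 lower in both. Their median log2 ratio was -0.07 in pair A and 0.42 in pair B. Tlr7, a receptor of single-stranded RNA, had 26 against 33 counts in pair A, 28 against 106 in pair B, a log2 fold change of 1.26 with an unadjusted p of 0.047. Unc93b1, which carries these receptors to the endosome, had 106 against 97 counts in pair A, 67 against 223 in pair B. Tlr3, the receptor of double-stranded RNA, was named for its ligand and had 70 against 71 counts in pair A, 73 against 115 in pair B. Tlr9, the receptor of CpG DNA, was named likewise and had 16 against 6 counts in pair A, 10 against 18 in pair B. Tlr8, a relative of Tlr7, and Tlr13, a receptor of bacterial ribosomal RNA, had higher counts in anti-miR-124 B alone, with 2 against 2 and 17 against 16 counts in pair A, 0 against 37 and 16 against 129 in pair B. In pair A the log2 ratios of Tlr7 and Tlr3 were 0.20 and -0.06, next to 1.33 for Ddx58 and 1.77 for Ifih1, and the difference between these receptors was not tested.

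Genes around PKR and ZBP1 were listed as well. Of 13 tested eIF2α kinases and genes of the integrated stress response, 0 had an unadjusted p under 0.05, and the log2 fold changes of the other eIF2α kinases with enough counts reached at most 0.18, for Eif2ak3 (PERK). Ddit3, a target of that response, had the smallest at -0.20. Of 6 tested partners of ZBP1 in cell death, 0 had an unadjusted p under 0.05, and the log2 fold changes of those with enough counts to be named ran from 0.34 for Ripk1 to -0.09 for Cflar. Among 8 genes that edit or degrade double-stranded RNA, Adar, which edits adenosine to inosine, had the largest log2 fold change at 0.16. Among 12 other DExD/H-box helicases the range was from 0.10 for Dhx33 to -0.13 for Dhx36, against 3.62 for Ddx60 and 1.74 for Ddx58. None of the pathway lists held a gene with an adjusted p under 0.05 by edgeR as run here.

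**Figure D5:**
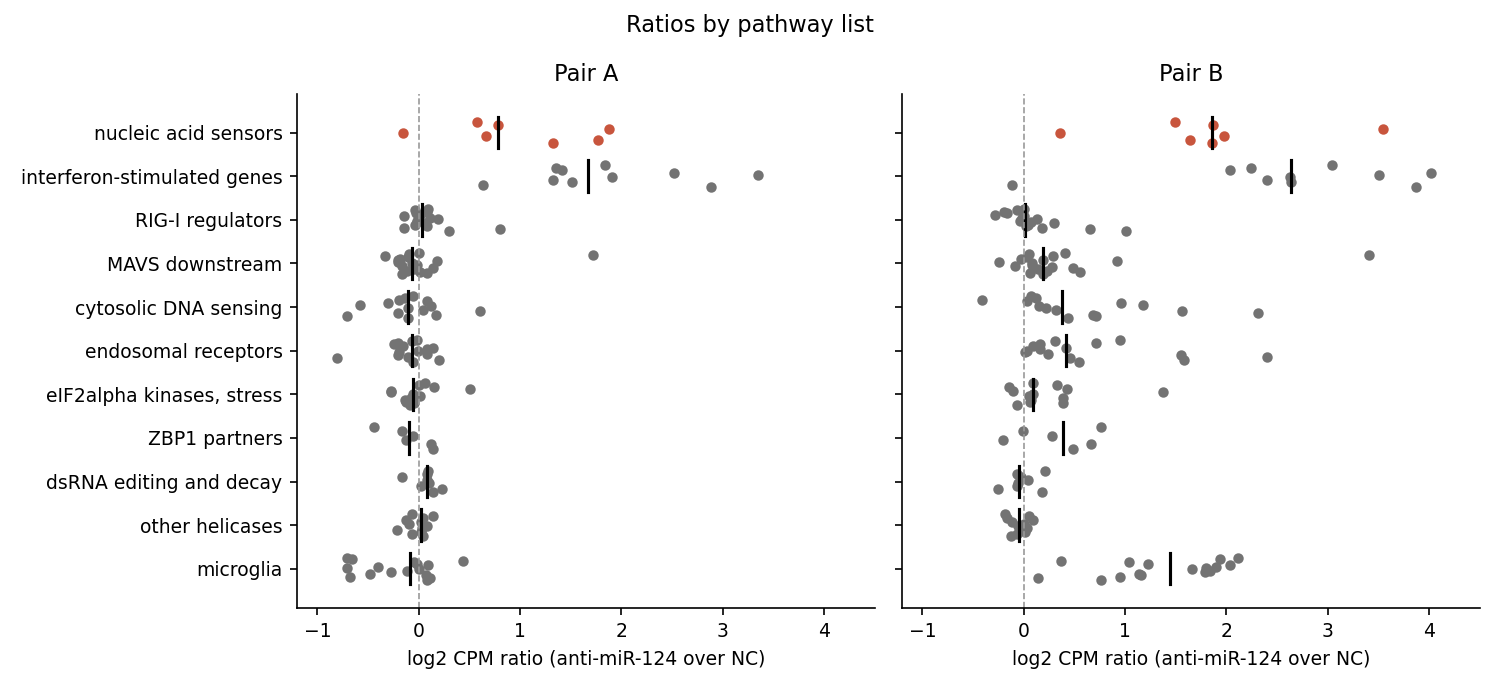
The log2 CPM ratio (0.5 added) of anti-miR-124 over NC in pair A (left) and pair B (right) for the 7 sensor genes (red) and the tested genes of 10 related lists (grey), 1 point per gene, with black bars at the median of the points. The sensors and the interferon-stimulated genes lie mostly above 0 in both pairs, while the microglia markers have a median of -0.09 in pair A and 1.44 in pair B.

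For Ddx58 and Eif2ak2, the genes most alike were taken by the distance between their log2 ratios in the 2 pairs, over the 17765 other genes with a mean of at least 1 TPM, tested or not. Next to Ddx58 were Rn7sk, Xaf1, Igtp, Uba7 and Gbp7, at distances of 0.0479 to 0.164. The nearest, Rn7sk, had few NC counts, with 9 against 37 counts in pair A, 5 against 42 in pair B. Xaf1, an interferon-induced gene, had 10 against 38 counts in pair A, 15 against 78 in pair B, and Igtp and Gbp7 belong to the interferon-inducible GTPases. Next to Eif2ak2 were Psmb8, Ifi35, Parp9, Lgals9 and Irf9, at distances of 0.0137 to 0.178. Psmb8, a subunit of the immunoproteasome, had 13 against 30 counts in pair A, 18 against 94 in pair B, and Irf9, which binds response elements of the kind shown above, had 137 against 287 counts in pair A, 131 against 501 in pair B. The likeness rests on 2 ratios only.

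The size of the sensor differences depended on single libraries. With each library left out in turn, the log2 fold change ranged from 1.32 to 2.07 for Ddx58, from 1.33 to 2.50 for Ifih1, from 2.66 to 4.19 for Ddx60, from 0.98 to 1.76 for Eif2ak2 and from 1.71 to 3.13 for Dhx58. It ranged from 1.90 to 6.71 for Zbp1 in the 3 of these fits that held it. Without anti-miR-124 A, edgeR called 4 of the genes (Ddx58, Ifih1, Ddx60 and Eif2ak2) at an adjusted p under 0.05, with 1.28% of all genes tested in that setting called higher, and without any 1 of the other 3 libraries it called 0.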

How the data were processed

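The authors deposited 1 table of gene counts, without normalization, for the 4 libraries, with gene lengths and positions, and RPKM values that the authors derived from the same counts, which were not used here. The submitters' processing notes name HISAT2 and mm9, while the positions of 99.8% of 36834 matched symbols overlapped RefSeq GRCm38, and the counting tool and its strand setting are not given in the sources used here. Columns were assigned to groups by the eye in their names, and 4 per-sample columns, those of RPKM, were left out. The series text gives an age of 6 days where the sample labels give postnatal day 9.

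TPM values were computed from counts and lengths. Groups were compared with edgeR 4.0.16 (R 4.3.3) on all genes passing its count filter, using TMM normalization, the quasi-likelihood test (two-sided), no covariate and Benjamini-Hochberg adjustment with a threshold of 0.05, and the code was tested on simulated data. The standard errors given are the absolute log2 fold change over the square root of the F statistic of edgeR's test. DESeq2 1.42.0, other normalizations and filters, a replicate block and leaving out each library were alternatives. Intervals of folds are exact conditional binomial intervals (95%) and, like the floor of 3 counts, cover counting error only. No 2 libraries agreed within counting noise (chi-square per degree of freedom at least 3.695). The labels state that each group came from several litters but not which animals made up each library, so p-values measure the spread between these libraries, which may be technical.

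The 7 genes and all lists were chosen with earlier results of these data known, so lists are described by counts and medians only. Named from each list were the genes with the largest and smallest log2 fold change among those with a mean of at least 50 counts, genes with an unadjusted p under 0.05, and the 5 genes most alike to Ddx58 and to Eif2ak2. Reporter genes and receptors named for their role were chosen after their values were seen, and 1 gene that the rule names is not reported here. Promoter sequences are from RefSeq (GRCm38.p6), for 5 of the 7 genes.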

Additional observations from a re-analysis of the deposited data

How the results depend on the processing

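The 6 sensor genes other than Mavs kept their direction in each setting that gave a value, and 6 of 7 were higher in both pairs with each scaling, with TPM and with the lens genes left out. The number of genes with an adjusted p under 0.05 was 0 with edgeR as run here, 379 without the filter on low counts and 34 with the DESeq2 Wald test, and it ranged from 0 to 256 with 1 library left out. It was 57 when NC B and 12 when anti-miR-124 B was left out. Of the sensor genes, 6 were called higher without the filter and 4 with DESeq2, and 0 to 4 with 1 library left out. The cause was not tested. The log2 fold change of Mavs ranged from -0.09 (anti-miR-124 B left out) to 0.29 (anti-miR-124 A left out). Of 78 recomputed fold changes of the sensors other than Zbp1, 59 kept direction and stayed on their side of the threshold, and 18 passed it. The other 1, of Mavs with anti-miR-124 B left out, changed direction and stayed on its side of the threshold. Same-numbered libraries did not deviate together (correlation of -0.1624), so the test has no block, and the numbers serve the ratios only to set libraries side by side. With a replicate block by number, 0 genes and 0 sensors had an adjusted p under 0.05, and 376 genes had an unadjusted p under 0.05, against 695 without it. With the numbers crossed, an alternative chosen after seeing the data, 160 genes and 5 sensors were called. A pseudocount of 0.1 or 1 CPM in place of 0.5 gave 5 recomputed ratios that moved by more than the spread between pairs. At 0.1 CPM, that of Dhx58 in pair B moved to 3.06 and that of Zbp1 in pair B to 3.32. The rest were of Ifih1, whose spread between pairs was small (SD of 0.09). They moved to 1.95 and 1.59 in pair A and to 1.55 in pair B. Depth limits Dhx58 and Zbp1 most.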
